A study of Fragaria vesca with 24 samples.

Results

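FvH4_2g11510 is the gene that the study's annotation of its freezing-tolerance interval names dynamin-related protein 3A (DRP3A). It was taken as 1 row of the 34006 rows of the gene table, together with every isoform row that carries its identifier, 4 of 64597 (t1, t2, t3 and t4). The identifier alone chose these rows, though the gene was picked with earlier results of these data known. Counts came from 24 RNASeq libraries of the diploid woodland strawberry Fragaria vesca, from 8 groups of 3 biological replicates. The groups were crowns and leaves of ‘NCGR1363’, the freezing-susceptible parent, and of ‘Alta’, the freezing-tolerant parent, taken after 42 d at 2 °C or untreated at 0 h. Plants were rooted runners, so each genotype is a single clone and a genotype difference compares 2 clones. Crown and leaf were whole tissue, in which fewer cells of a type and less RNA per cell cannot be told apart.

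Dynamin-related proteins are large GTPases that assemble into rings around a membrane and pinch it. In Arabidopsis, DRP3A divides mitochondria and peroxisomes, together with its close relative DRP3B and with membrane-anchored FIS1 proteins that help to bring it to the organelle. A dynamin carries its GTPase domain in the amino-terminal part of the protein, ahead of the middle and GTPase-effector domains through which the molecules assemble.

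The 4 predicted mRNAs of DRP3A differ in where their coding sequence begins and ends. In t2 the coding sequence runs from base 169 to base 2652 of the mRNA, which is 2484 bases or 828 codons. In t1 it runs from base 124 to base 2574 and is 11 codons shorter than in t2. In t4 it begins at the same base as in t2 but ends at base 2256, so that it is 132 codons shorter. In t3 it begins only at base 967 and ends at base 2913, giving 1947 bases or 649 codons, 78.4% of the length in t2. The 966 bases ahead of the t3 coding sequence are long for this annotation, where the median isoform starts coding at base 157 and 3.31% of all isoform rows start at or beyond the position in t3. These are properties of the annotation (F. vesca v4.0.a2). Exon positions and the mRNA sequences were not used here, so whether the t3 protein lacks part of the GTPase domain was not examined.

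**Figure D1:**
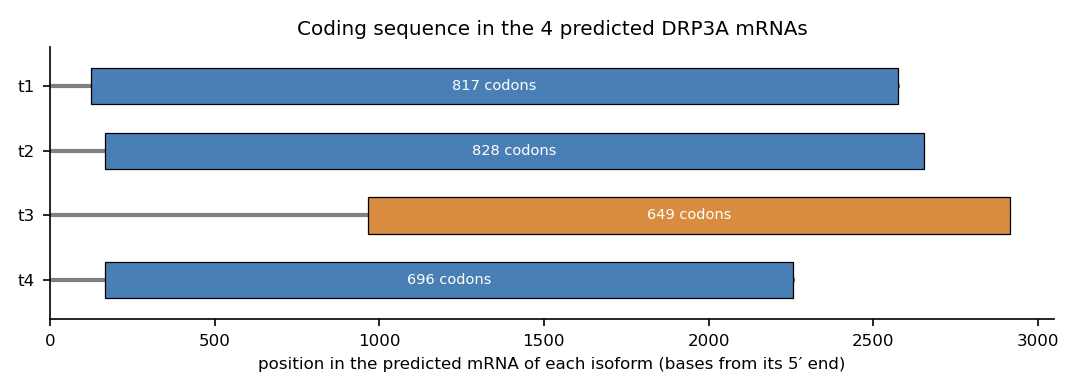
Coding sequence of the 4 predicted DRP3A mRNAs, with isoforms from t1 at the top to t4 at the bottom and the position in each mRNA on the x axis in bases from its 5′ end. Boxes are coding sequences with their number of codons and grey lines the bases ahead of them. The box of t3, in orange, begins at base 967, against base 169 in t2 and t4.

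The gene row held between 953 and 2274 counts per library, of total counts between 12818719 and 18487934, and the 4 isoform rows added up to the gene row within 1 count in every library. Expression is given as CPM, the count scaled to library size with TMM factors. CPM of the gene row and of the isoforms were scaled on their own tables, so the 2 are not on the same scale. An isoform can thus lie above its gene, as t2 did in ‘NCGR1363’ crown 0 h replicate 1 (119.6 CPM, against 115.7 CPM for the gene row). Each comparison was tested with edgeR's quasi-likelihood F-test, and FDR is its Benjamini-Hochberg adjusted p over all genes or all isoforms tested. A feature is called at an FDR of at most 0.05. One library stood apart from its label. It carries the label ‘Alta’ crown 42 d replicate 3, and its Pearson's r was between 0.709 and 0.727 with its own 2 replicates over 20666 genes and between 0.974 and 0.984 with the 3 libraries of ‘Alta’ leaf 0 h. In the other 7 groups, replicates correlated between 0.915 and 0.992. Its summed level of 8 photosynthesis genes fixed as leaf markers was 2425 CPM, against 90.1 and 96.1 CPM in the other replicates of its group, and its summed level of 3 cold markers was 67.8 CPM, against 2568 and 4283 CPM. The summed level of 3 crown markers was 275.9 CPM, against 106.7 and 183.9 CPM in those replicates. That sum was 186.0 to 246.8 CPM in ‘Alta’ leaf 0 h and 383.4 to 450.5 CPM in ‘Alta’ crown 0 h. Most of it in this library came from a cellulose synthase gene (200.2 CPM) that was not called between untreated tissues. Xylem cysteine proteinase 1, called higher in untreated crowns, was at 75.8 CPM. Its mean was 75.4 CPM in ‘Alta’ leaf 0 h, 286.3 CPM in ‘Alta’ crown 0 h and 91.9 CPM in ‘Alta’ crown 42 d. The library was kept under its label, and the main comparisons that include it are also given without it.

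At the gene level, DRP3A was expressed in every library, within a range of 79.7 to 124.1 CPM. The highest group mean, 120.2 ± 4.2 CPM in untreated ‘NCGR1363’ crowns, and the lowest, 82.6 ± 3.3 CPM in ‘NCGR1363’ leaves at 42 d (SD, n = 3 each), came from the same genotype. Below untreated ‘NCGR1363’ crowns the order was untreated ‘Alta’ leaves (116.3 ± 2.6 CPM), ‘Alta’ crowns at 42 d (102.7 ± 8.0, or 98.1 ± 2.3 in the 2 libraries left without the one that stood apart) and untreated ‘Alta’ crowns (99.9 ± 0.70). Then came untreated ‘NCGR1363’ leaves (95.04 ± 3.7), ‘NCGR1363’ crowns at 42 d (89.5 ± 8.6) and ‘Alta’ leaves at 42 d (88.0 ± 6.2). Neighbours in this order had overlapping libraries except at 2 places, between untreated ‘Alta’ leaves and ‘Alta’ crowns at 42 d and between untreated ‘Alta’ crowns and untreated ‘NCGR1363’ leaves.

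**Figure D2:**
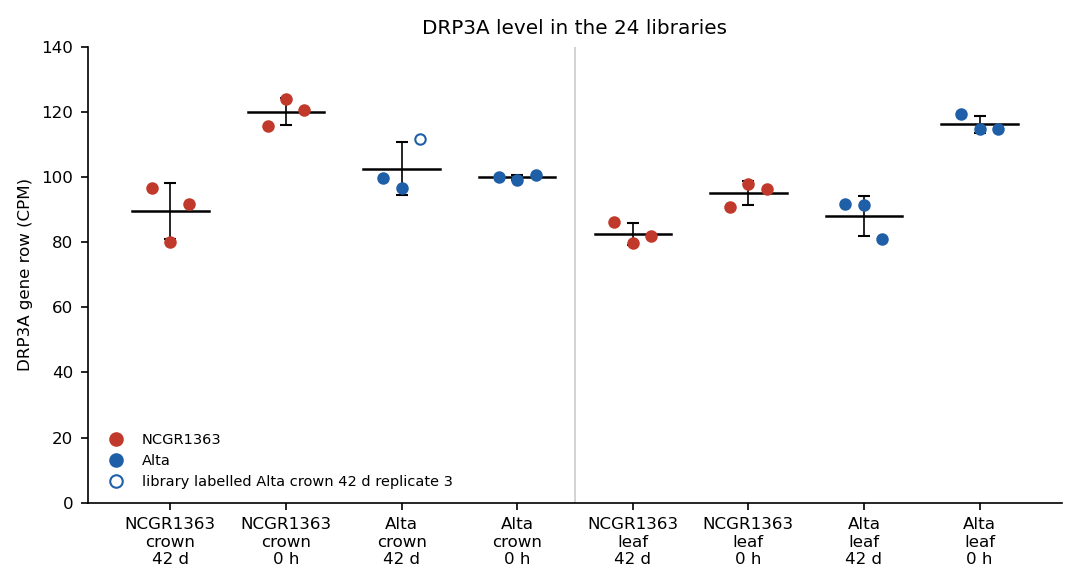
Gene-level expression of DRP3A in CPM (y axis, from 0) in the 8 groups, with 1 point for each library and a bar with error for the mean ± SD. Untreated ‘NCGR1363’ crowns (115.7 to 124.1 CPM) lie above untreated ‘Alta’ crowns (99.2 to 100.5 CPM), and in leaves the order of the untreated genotypes is turned round.

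The first comparison asked how transcript accumulation changed with cold. In ‘NCGR1363’ crowns, the gene row was at 96.7, 80.0 and 91.8 CPM at 42 d, against 115.7, 124.1 and 120.7 CPM at 0 h. All 3 cold-treated libraries were lower than all 3 untreated ones. The log2 fold change was −0.42 ± 0.08 (SE, edgeR FDR 0.00105), which is 1.34-fold lower at 42 d, and 58.9% of the 19108 genes tested were called in this comparison in either direction. In ‘Alta’ leaves, the gene row was at 91.7, 91.5 and 80.9 CPM at 42 d, against 119.3, 114.8 and 114.8 CPM at 0 h. These groups did not overlap either, and the level fell 1.31-fold (log2 fold change −0.39 ± 0.10, edgeR FDR 0.00996), where 55.8% of genes were called.

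In the other strata no cold response of the gene row was called. ‘NCGR1363’ leaves held 86.2, 79.7 and 81.8 CPM at 42 d and 90.8, 97.8 and 96.5 CPM at 0 h. The 3 treated libraries were again all below the untreated ones, but the log2 fold change of −0.18 ± 0.10 did not pass the test (edgeR FDR 0.22, 95% interval −0.41 to 0.06), in a comparison that called 31.4% of genes. ‘Alta’ crowns held 99.8, 96.5 and 111.7 CPM at 42 d, the last in the library that stood apart, and 100.03, 99.2 and 100.5 CPM at 0 h. Their log2 fold change was 0.03 ± 0.15 (edgeR FDR 0.93), and −0.03 ± 0.09 without that library (edgeR FDR 0.77), where 57.7% of genes were called, against 7.67% with it. Averaged over the 4 strata in all 24 libraries, DRP3A was 1.19-fold lower at 42 d than at 0 h (log2 fold change −0.25 ± 0.05, edgeR FDR 0.00026). Without the library that stood apart this value was −0.26 ± 0.04, and 51.7% of genes were called in the average comparison.

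Whether the cold responses of crowns of the 2 genotypes were called different depended on 1 library and on the fit. The difference of the cold responses, ‘NCGR1363’ minus ‘Alta’, was −0.46 ± 0.15 on the log2 scale in crowns and did not pass the test (edgeR FDR 0.11). Without ‘Alta’ crown 42 d replicate 3 it was −0.38 ± 0.12 and passed it (edgeR FDR 0.026). With that library kept, it also passed with all 24 libraries in the fit (−0.47, edgeR FDR 0.034) and by DESeq2 (−0.47, adjusted p 0.0069). Of all genes tested, 6.41% were called with this library and 35.9% without it. In leaves the difference had the other sign, 0.24 ± 0.12, and was not called (edgeR FDR 0.19), while 17.7% of genes were. The cold response of crowns minus that of leaves was 0.44 ± 0.17 in ‘Alta’ (edgeR FDR 0.11, or 0.052 without that library) and −0.23 ± 0.13 in ‘NCGR1363’ (edgeR FDR 0.23). These called 10.3% of genes in ‘Alta’, or 28.9% without that library, and 20.8% in ‘NCGR1363’.

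The second comparison set the genotypes against each other. In untreated crowns, DRP3A was 1.19-fold higher in ‘NCGR1363’ than in ‘Alta’ (log2 fold change 0.25 ± 0.05, edgeR FDR 0.00196), and the libraries did not overlap. In untreated leaves, it was 1.21-fold lower, at 90.8, 97.8 and 96.5 CPM in ‘NCGR1363’ against 119.3, 114.8 and 114.8 CPM in ‘Alta’ (log2 fold change −0.28 ± 0.08, edgeR FDR 0.042). The first of these comparisons called 63.2% of all genes and the second 18.7%. The call in untreated leaves was close to the threshold. It held without ‘NCGR1363’ leaf 0 h replicate 1 (edgeR FDR 0.035) and was lost without any 1 of the other 5 libraries (edgeR FDR 0.0961 to 0.139).

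After 42 d the genotype difference of the gene row was not called in either tissue. It was −0.20 ± 0.17 on the log2 scale in crowns (edgeR FDR 0.51), with a 95% interval of −0.61 to 0.22, and −0.13 ± 0.12 (edgeR FDR 0.39) without the library that stood apart. In leaves it was −0.14 ± 0.11 (edgeR FDR 0.44), with an interval of −0.41 to 0.13. In crowns 5.0% of genes were called, or 49.9% without that library, and in leaves 15.2%. Averaged over tissues and times, the genotypes differed by −0.08 ± 0.05 on the log2 scale, which did not pass the test (edgeR FDR 0.22), as 31.6% of genes did. Without the library that stood apart the value was −0.06 ± 0.04 (edgeR FDR 0.20), and 50.2% of genes passed.

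The order of crown and leaf turned round between the untreated genotypes. In ‘NCGR1363’, untreated crowns were 1.24-fold higher than untreated leaves (log2 fold change 0.31 ± 0.07, edgeR FDR 0.00718). In ‘Alta’, untreated crowns were at 100.03, 99.2 and 100.5 CPM and untreated leaves at 119.3, 114.8 and 114.8 CPM, so crowns were 1.19-fold lower (log2 fold change −0.25 ± 0.06, edgeR FDR 0.00484). Of all genes, 65.7% were called between the tissues of untreated ‘NCGR1363’ and 73.1% between those of untreated ‘Alta’. The difference itself, crown over leaf in ‘NCGR1363’ minus crown over leaf in ‘Alta’, was 0.53 ± 0.08 on the log2 scale at 0 h (edgeR FDR 0.00031). This is a 1.44-fold change of the ratio, in a comparison that called 41.1% of genes and that was chosen after the values were seen. None of these 12 libraries is the one that stood apart.

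At 42 d no such difference was found. Crowns over leaves gave 0.12 ± 0.11 on the log2 scale in ‘NCGR1363’ (edgeR FDR 0.38, with 55.5% of genes called) and 0.25 ± 0.19 in ‘Alta’ (edgeR FDR 0.54). The comparison in ‘Alta’ called 1 gene of 18756 (0.00533%) with all libraries and 44.8% of genes without ‘Alta’ crown 42 d replicate 3, where DRP3A was at 0.18 ± 0.14 (edgeR FDR 0.33). The difference between genotypes at 42 d was −0.09 ± 0.19, with a 95% interval of −0.52 to 0.33 (edgeR FDR 0.89), and 0.115% of genes were called. Without the library that stood apart it was −0.08 ± 0.16 (edgeR FDR 0.81), and 4.96% of genes were called. The average of crown over leaf in all 24 libraries was 0.11 ± 0.05 (edgeR FDR 0.0395), or 0.13 ± 0.04 without the library that stood apart (edgeR FDR 0.00519), and 67.3% of genes were called. Since the 2 genotypes had opposite signs at 0 h, this average describes neither of them.

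**Figure D3:**
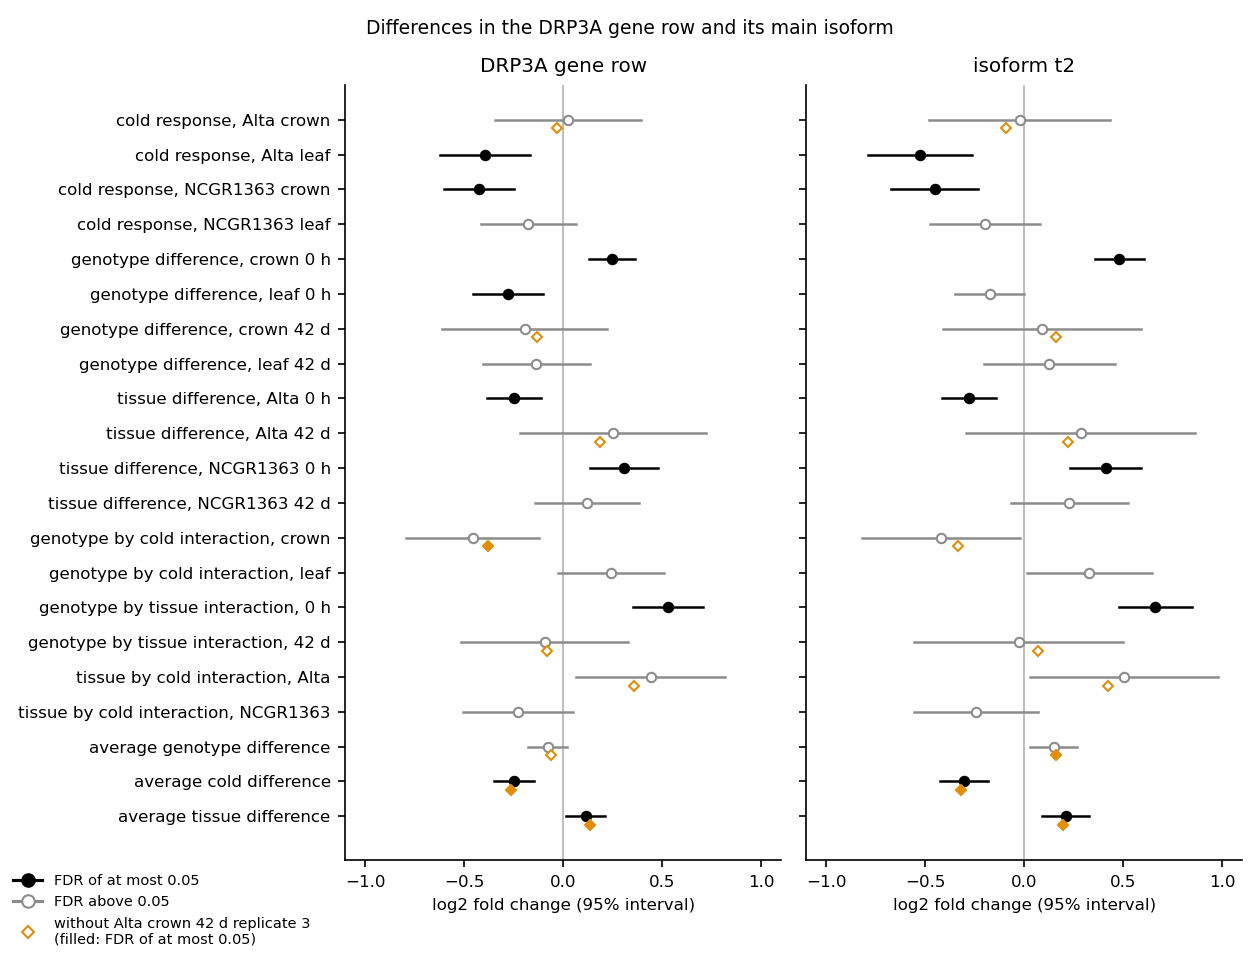
Log2 fold changes of the DRP3A gene row (left) and of isoform t2 (right) in the comparisons of cold (42 d over 0 h), genotype (‘NCGR1363’ over ‘Alta’), tissue (crown over leaf) and their interactions, with 95% intervals. Filled circles passed an FDR of 0.05 and diamonds give values without ‘Alta’ crown 42 d replicate 3, the library that stood apart. The genotype by tissue value at 0 h, 0.53 for the gene row and 0.66 for t2, is the largest of those plotted.

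The share of each isoform in the counts of the gene was then taken in every library. RSEM divides reads that fit several isoforms between them by a model, so a share is an estimate that also depends on the bases in which the isoforms differ. In both genotypes t2 was the main isoform, with 91.1% to 99.1% of the counts in the 12 ‘NCGR1363’ libraries and 77.2% to 86.7% in the 12 ‘Alta’ libraries. No library of one genotype reached the range of the other. The second isoform of ‘Alta’ was t3, with 6.79% to 15.6% of the counts, whereas 10 of the 12 ‘NCGR1363’ libraries had no count of t3. The share of t1 and t4 together was 4.91% ± 2.63 in ‘NCGR1363’ and 5.00% ± 3.01 in ‘Alta’ (SD over 12 libraries each), and t2 with t3 made up the rest. The shares of t2 and of t3 thus lay apart between the genotypes, while the ranges of t1 and t4 together lay over each other.

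**Figure D4:**
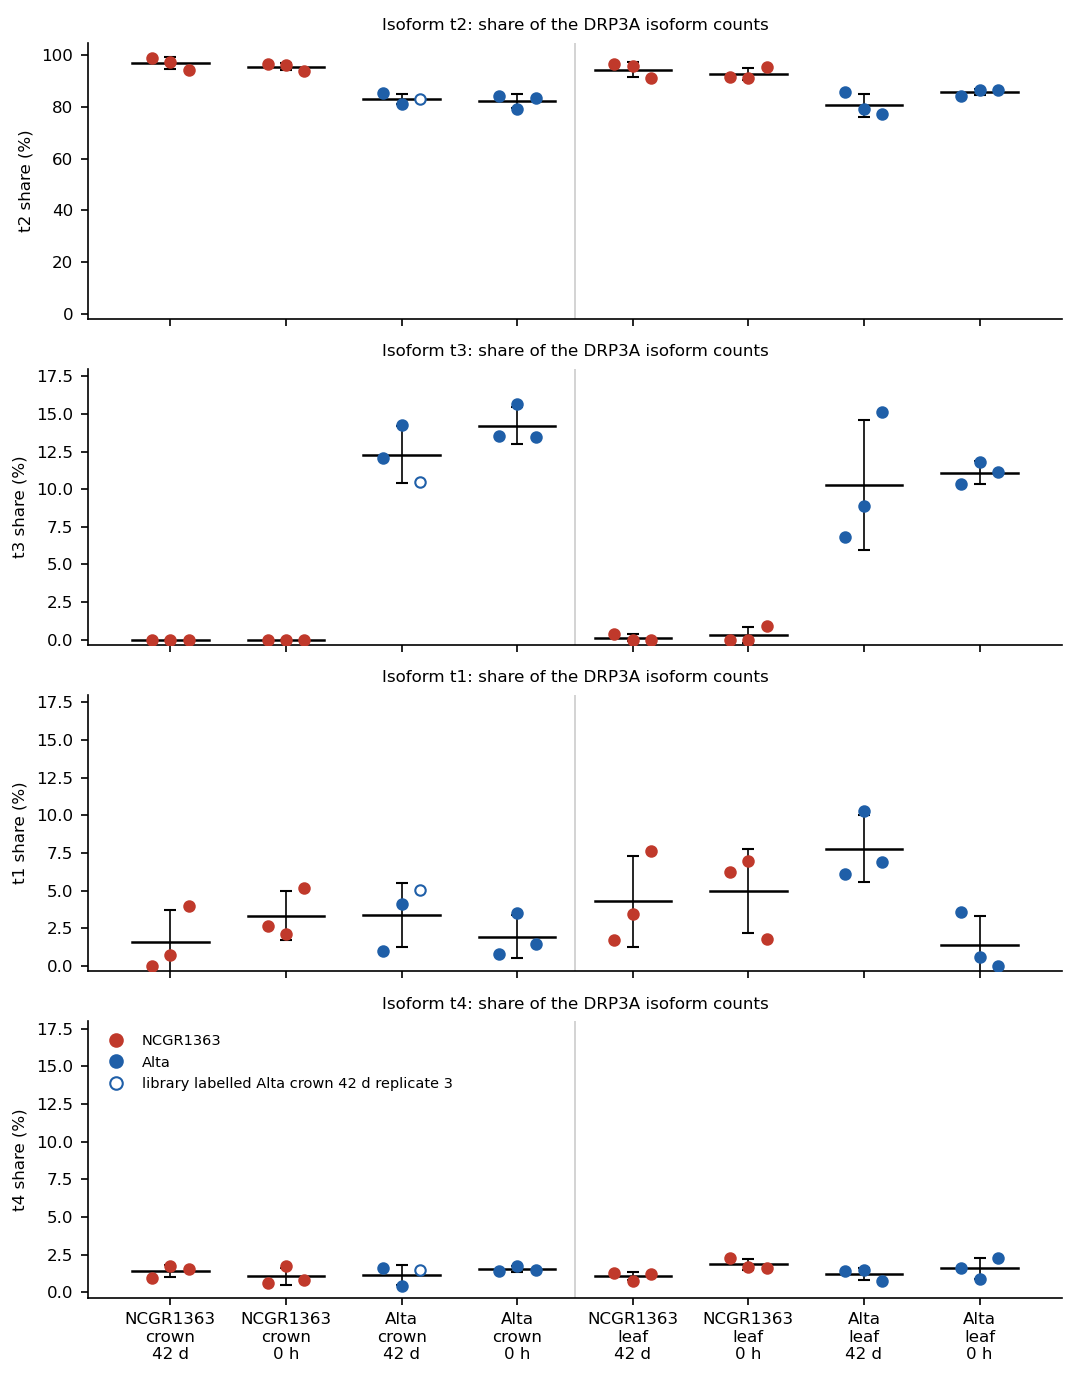
Share of isoforms t1, t2, t3 and t4 in the counts of DRP3A (y axes, percent) by group, with 1 point for each library and a line for the group mean. The t3 panel shows ‘Alta’ libraries between 6.79% and 15.6% and ‘NCGR1363’ libraries at or near 0.

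By group, the share of t2 in ‘NCGR1363’ was 97.0% ± 2.3 in crowns at 42 d, 95.6% ± 1.4 in crowns at 0 h, 94.5% ± 3.0 in leaves at 42 d and 92.8% ± 2.5 in leaves at 0 h (SD, n = 3 each). In ‘Alta’ it was 83.2% ± 2.0 in crowns at 42 d, 82.3% ± 2.8 in crowns at 0 h, 80.7% ± 4.5 in leaves at 42 d and 85.9% ± 1.2 in leaves at 0 h. Cold and tissue moved these means by a few percentage points within a genotype. A test of isoform usage, the change of an isoform relative to its gene, called t2 in none of the comparisons. In untreated crowns the relative change of t2 was 0.15 on the log2 scale (edgeR FDR 0.75), a small relative change because t2 makes up most of the gene in both genotypes.

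Between genotypes, the level of t2 had the direction of the gene row in untreated plants only, with a larger difference in untreated crowns. There t2 was at 119.6, 127.9 and 119.2 CPM in ‘NCGR1363’, against 88.2, 81.4 and 87.2 CPM in ‘Alta’. The ‘NCGR1363’ libraries were all higher, 1.4-fold on average (log2 fold change 0.48 ± 0.05, edgeR FDR 0.00102), and 30.1% of the isoforms tested were called. In untreated leaves t2 was at 83.2, 87.9 and 91.1 CPM in ‘NCGR1363’ and at 100.5, 98.5 and 93.9 CPM in ‘Alta’. Here the log2 fold change of −0.17 ± 0.07 did not pass the test (edgeR FDR 0.26), unlike that of the gene row, and 4.61% of isoforms did. After 42 d the genotypes were at 89.6 ± 9.8 CPM in ‘NCGR1363’ crowns and 83.6 ± 6.5 CPM in ‘Alta’ crowns, and at 75.3 ± 4.0 CPM in ‘NCGR1363’ leaves and 68.3 ± 6.8 CPM in ‘Alta’ leaves. Neither difference was called (edgeR FDR 0.89 in crowns, 0.45 without the library that stood apart, and 0.70 in leaves). Their signs were opposite to those of the gene row, at 0.09 against −0.20 on the log2 scale in crowns and 0.13 against −0.14 in leaves. The average genotype difference of t2 was 0.15 ± 0.06 and missed the threshold (edgeR FDR 0.092), and without the library that stood apart it was 0.16 ± 0.05 and passed it (edgeR FDR 0.016), where 15.1% of isoforms were called with all libraries and 24.8% without that one. The average of the gene row had the other sign (−0.08, or −0.06 without that library) and was not called.

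With cold, t2 fell 1.44-fold in ‘Alta’ leaves (log2 fold change −0.53 ± 0.11, edgeR FDR 0.016), at 74.0, 70.2 and 60.8 CPM at 42 d against 100.5, 98.5 and 93.9 CPM at 0 h. Without ‘Alta’ leaf 0 h replicate 2 this call was lost (edgeR FDR 0.0568). The level of t2 fell 1.37-fold in ‘NCGR1363’ crowns (−0.45 ± 0.09, edgeR FDR 0.014), at 99.7, 80.2 and 88.8 CPM at 42 d against 119.6, 127.9 and 119.2 CPM at 0 h. Of all isoforms tested, 25.5% were called in ‘Alta’ leaves and 26.7% in ‘NCGR1363’ crowns. ‘NCGR1363’ leaves (−0.20 ± 0.12, edgeR FDR 0.31) and ‘Alta’ crowns (−0.02 ± 0.19, edgeR FDR 0.97) passed no test for t2. These comparisons called 13.0% of isoforms in ‘NCGR1363’ leaves and 1.89% in ‘Alta’ crowns, or 28.5% in ‘Alta’ crowns without the library that stood apart, where t2 was at −0.09 ± 0.09 (edgeR FDR 0.51). On average t2 was 1.23-fold lower at 42 d (−0.30 ± 0.06, edgeR FDR 0.000495), with 31.8% of isoforms called. Crown over leaf gave 0.41 ± 0.07 in untreated ‘NCGR1363’ (edgeR FDR 0.00659) and −0.28 ± 0.06 in untreated ‘Alta’ (edgeR FDR 0.00868), where 35.0% of isoforms were called in ‘NCGR1363’ and 40.0% in ‘Alta’. The call in ‘Alta’ was lost with all 24 libraries in the fit (−0.21, edgeR FDR 0.16) and with a block on the replicate number (edgeR FDR 0.051). The difference between the genotypes in crown over leaf was 0.66 ± 0.08 (edgeR FDR 0.00045), a 1.58-fold change of the ratio, with 14.7% of isoforms called. The averaged crown over leaf value of t2 was 0.21 ± 0.06 (edgeR FDR 0.00617), with 40.9% of isoforms called.

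The t3 isoform is the one the study names, and the study chose it from these libraries, so its genotype tests are no independent evidence. In ‘NCGR1363’ crowns t3 had 0 counts in all 6 libraries. The upper limit of the 95% Wilson interval of its share was 0.169% to 0.290%, depending on the library. In ‘NCGR1363’ leaves t3 had counts in 2 of 6 libraries. These were 5 counts in 42 d replicate 1, a share of 0.395% (95% Wilson interval 0.17% to 0.92%), and 10 counts in 0 h replicate 3, a share of 0.898% (0.49% to 1.65%). In ‘Alta’ crowns it had 179, 249 and 123 counts at 42 d and 251, 270 and 229 counts at 0 h. In ‘Alta’ leaves it had 87, 101 and 179 counts at 42 d and 158, 134 and 142 counts at 0 h. Every ‘Alta’ library was thus above every ‘NCGR1363’ library, and the lowest ‘Alta’ level was 5.86 CPM. Intervals and limits of this kind cover counting error only.

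Against a floor of 3 counts per library, t3 in crowns was at least 74.9-fold lower in ‘NCGR1363’ than in ‘Alta’ at 42 d and at least 85.2-fold lower at 0 h. The test of its level passed in crowns at 42 d (edgeR FDR 0.023, or 0.0058 without the library that stood apart) and at 0 h (edgeR FDR 0.00019). The call at 42 d was lost without any 1 of the other 5 libraries of that comparison (edgeR FDR up to 0.198). In leaves the test of the level missed the threshold at 42 d (edgeR FDR 0.0515) and at 0 h (edgeR FDR 0.073), where t3 varied between replicates of ‘NCGR1363’. The share of isoforms called between genotypes at 42 d was 0.927% in crowns, or 19.1% without the library that stood apart, and 3.58% in leaves. The test of isoform usage called t3 in all 4 strata, with an edgeR FDR of 0.00061 in crowns at 42 d, 1.28e-09 in crowns at 0 h, 0.0006 in leaves at 42 d and 0.0105 in leaves at 0 h. The last of these was lost without ‘NCGR1363’ leaf 0 h replicate 2 (edgeR FDR 0.0708) or ‘Alta’ leaf 0 h replicate 2 (edgeR FDR 0.0923). It called 0.69% of all isoforms in crowns at 42 d, 3.13% in crowns at 0 h, 0.823% in leaves at 42 d and 1.23% in leaves at 0 h. In data simulated for crowns at 0 h, with the same spread for every isoform, 21.2% of its calls were unchanged isoforms, more than its threshold allows. The FDR of the usage test may thus be too small, and the other strata were not simulated.

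Rows with the pattern of t3 were then counted in the whole isoform table, by limits set after the values of t3 were seen, so that t3 meets them by construction. Of 10714 isoform rows with at least 5 CPM in all 12 ‘Alta’ libraries, 6 had 0 counts in all 6 ‘NCGR1363’ crown libraries, which is 0.056%. In 4 of these 6 the gene row differed less than 2-fold between the genotypes. In the other direction, 16 of 11028 rows at this level in all ‘NCGR1363’ libraries had 0 counts in all ‘Alta’ crown libraries.

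Within ‘Alta’ the share of t3 was 12.3% ± 1.9 in crowns at 42 d, or 13.2% ± 1.5 without the library that stood apart (n = 2), and 14.2% ± 1.2 in crowns at 0 h. In leaves it was 10.3% ± 4.3 at 42 d and 11.1% ± 0.75 at 0 h. The spread in cold-treated leaves came from shares of 6.79%, 8.89% and 15.1%. The level of t3 was 12.3 ± 1.1 CPM in crowns at 42 d and 14.8 ± 1.1 CPM in crowns at 0 h, a log2 fold change of −0.26 ± 0.22 that was not called (edgeR FDR 0.59, or 0.35 without that library). In leaves it was 8.56 ± 3.09 CPM at 42 d and 12.6 ± 0.72 CPM at 0 h. The 3 cold-treated leaf libraries were below the 3 untreated ones, but the log2 fold change of −0.58 ± 0.29 did not pass the test (edgeR FDR 0.20, 95% interval −1.27 to 0.12). Crown over leaf gave 0.51 ± 0.36 at 42 d (edgeR FDR 0.70) and 0.14 ± 0.13 at 0 h (edgeR FDR 0.46). Without the library that stood apart, the value at 42 d was 0.56 ± 0.35 (edgeR FDR 0.34), in a comparison that then called 18.0% of isoforms, against 0 of 37166 with it.

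The remaining isoforms were minor in every library. t1, whose coding sequence is nearly as long as that of t2, had between 0 and 117 counts, with no count in 2 libraries. Its share averaged 1.59% ± 2.13 in ‘NCGR1363’ crowns at 42 d and 3.33% ± 1.62 at 0 h, and 3.39% ± 2.11 in ‘Alta’ crowns at 42 d and 1.94% ± 1.42 at 0 h. The SD was thus often near the mean. In leaves the share of t1 was 4.29% ± 3.05 at 42 d and 5.00% ± 2.79 at 0 h in ‘NCGR1363’. In ‘Alta’ leaves it was 6.09%, 10.3% and 6.94% at 42 d, against 3.59%, 0.617% and 0% at 0 h. These libraries did not overlap, but neither the level of t1 (edgeR FDR 0.32) nor its usage (edgeR FDR 0.18) was called there, and the usage test called 2.2% of isoforms. t4, whose coding sequence is shorter than that of t2, had between 7 and 39 counts and a share between 0.401% and 2.29%. Neither isoform was called in any of the 21 comparisons, where the lowest edgeR FDR of the level was 0.28 for t1 and 0.13 for t4.

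Genes next to DRP3A were compared with it, as a list of the 5 genes before and the 5 after it in the order of their identifiers. Only 3 or 4 of the 10 passed the filter on low counts, depending on the comparison. On average over the 4 strata, 2 were lower and 1 higher at 42 d, against 23.4% and 28.3% of all genes called in these directions. FvH4_2g11490, an uncharacterized protein, was lower (log2 fold change −0.68, edgeR FDR 0.00029), as was FvH4_2g11550, a costars family protein (−0.42, edgeR FDR 0.00038). The directly following gene, FvH4_2g11520, a GATA transcription factor 24-like gene, was higher (0.61, edgeR FDR 2.6e-05), opposite to DRP3A. In untreated crowns FvH4_2g11490 (0.45, edgeR FDR 0.00199) and FvH4_2g11550 (0.54, edgeR FDR 1e-04) were higher in ‘NCGR1363’ than in ‘Alta’, as DRP3A was. FvH4_2g11520 was not called there (−0.19, edgeR FDR 0.055), and 31.1% of all genes were called higher. FvH4_2g11550 also had a tissue difference of the same signs as DRP3A at 0 h, 0.38 in ‘NCGR1363’ (edgeR FDR 0.0113) and −0.39 in ‘Alta’ (edgeR FDR 0.0033). FvH4_2g11490 had these signs too, called in ‘Alta’ (−0.45, edgeR FDR 0.00194) but not in ‘NCGR1363’ (0.37, edgeR FDR 0.088). FvH4_2g11520 was called in neither (−0.25 in ‘NCGR1363’, edgeR FDR 0.082, and 0.03 in ‘Alta’, edgeR FDR 0.81). These comparisons called 65.7% of all genes in ‘NCGR1363’ and 73.1% in ‘Alta’.

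A second list held the 19 genes of the interval whose description names mitochondria or peroxisomes, the organelles that DRP3A divides in Arabidopsis. Of 16 that were tested on average over strata, 6 were higher and 2 lower at 42 d, with a median log2 fold change of 0.35, against 0.05 over all genes, of which 28.3% were called higher and 23.4% lower. Without the library that stood apart, 6 were higher and 3 lower, with a median of 0.27. With all libraries, the 2 that fell, as DRP3A did, were FvH4_2g17370, a mitochondrial acyl-coenzyme A thioesterase 9 (−0.56, edgeR FDR 0.00452), and FvH4_2g13880, a membrane subunit of succinate dehydrogenase (−0.22, edgeR FDR 0.00834). In untreated crowns, 5 of 15 were higher and 3 lower in ‘NCGR1363’ than in ‘Alta’, with 31.1% and 32.2% of all genes called in these directions. FvH4_2g13880 was among these 5 (0.34, edgeR FDR 0.00024), and in untreated leaves it was lower in ‘NCGR1363’ (−0.32, edgeR FDR 0.0449), as DRP3A was.

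Between tissues, on average 3 of the 16 were higher and 9 lower in crowns than in leaves, with a median of −0.56 against 0.07 over all genes, of which 36.0% were called higher and 31.3% lower. Without the library that stood apart, 5 were higher and 10 lower, with a median of −0.45. The 3 that were higher with all libraries were FvH4_2g13880 (0.71, edgeR FDR 2e-08), FvH4_2g17650, a mitochondrial adrenodoxin (0.66, edgeR FDR 1.39e-06), and FvH4_2g11810, a pentatricopeptide repeat protein (0.36, edgeR FDR 0.00624). FvH4_2g14910, a glutamate-tRNA ligase of chloroplast and mitochondrion, was lower in crowns by a log2 fold change of −1.94 (edgeR FDR 4.17e-09). Some of the list, such as the tRNA ligases, also serve the chloroplast. Of the 8 leaf markers, 7 were lower in crowns on average, and their summed level was 81.2 to 111 CPM in the crown libraries, 2425 CPM in the one that stood apart, and 923 to 2658 CPM in leaves; their part in the result was not tested. Genes of the fission machinery beside DRP3A carried no usable name in the tables and were not analysed here.

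The genes whose pattern over the 24 libraries was most like that of DRP3A were sought among all genes with a mean of at least 1 CPM, by Pearson's r of log2(CPM + 0.5). The 5 closest were FvH4_6g08220 (r = 0.929), FvH4_7g05280 (0.921), FvH4_5g12331 (0.912), FvH4_3g40960 (0.876) and FvH4_2g08630 (0.875). The sources used here do not annotate them. The median r over all genes was −0.01, and 0.318% of genes reached 0.8. Among 455 interval genes the closest were FvH4_2g14590, a homolog of the vacuolar protein sorting-associated protein VPS45 (0.852), FvH4_2g11940, potassium transporter 7 (0.804), and FvH4_2g16530, a SLY1 protein of the SEC1 family (0.75). VPS45 and SLY1 are known, from yeast, as regulators of membrane fusion in vesicle transport. These values describe 24 libraries that share 8 groups.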

How the data were processed

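RNA of crowns and leaves was sequenced by the authors as strand-specific, paired-end libraries. The authors trimmed the reads, used RSEM with Bowtie2 to assign them to the predicted mRNAs of annotation F. vesca v4.0.a2, and deposited expected counts for each gene and isoform, without normalization. All values were whole numbers, so rounding changed nothing. Libraries were grouped by their titles. No sample column was left unused.

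Comparisons were fitted on the whole gene and isoform tables with edgeR 4.0.16 in R 4.3.3, using TMM factors, the legacy quasi-likelihood F-test, rows with at least 0.5 CPM in at least 2 libraries of the comparison, and Benjamini-Hochberg adjustment over all rows tested. Comparisons of 2 groups used 6 libraries, interactions 12 and averages 24. Isoform usage was tested with diffSpliceDGE. Shares were taken over the sum of the 4 isoform rows. Fits were also made without ‘Alta’ crown 42 d replicate 3. DESeq2 1.42.0 gave alternatives only. The labels name biological replicates but not separate propagations, so p-values measure the spread between these samples.

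DRP3A, the gene lists and the comparisons were chosen with earlier results of these data known, and the genotype by tissue interactions were added after the values were seen. Named genes were DRP3A and its isoforms, crown markers, called genes among 10 neighbours, at most 6 of 19 organelle genes called in the direction of DRP3A or in the most comparisons, and the 5 genes of the table and 3 of the interval most like DRP3A among those with a mean of at least 1 CPM. Libraries of crowns and leaves of ‘NCGR1363’ at 42 d with the same replicate number deviated together (r of 0.124 to 0.393), and a block on the number changed no call of DRP3A there. In each of the other 11 pairs of groups, some r was not over 0.1, the limit set for pairing. Single r there ranged from −0.517 to 0.616, so pairing is not excluded with 3 replicates. On simulated data for the crown 0 h comparison, 155 of 200 changed genes were called at the gene level over 19239 genes, 5 of 160 calls being unchanged. For isoforms, 197 of 200 were called over 36790, with 11 of 208 unchanged, and for usage 104 of 200 over 24771, with 28 of 132 unchanged. For the crown interaction, 96 of 200 were called over 19705 genes. Reads, mapping and isoform assignment were not analysed here.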

Additional observations from a re-analysis of the deposited data

Results flagged for a closer look

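One difference between the genotypes reversed between tissues and passed a test of the difference itself. In untreated plants, crown over leaf in ‘NCGR1363’ minus crown over leaf in ‘Alta’ was 0.53 ± 0.08 on the log2 scale for the gene row of DRP3A (edgeR FDR 0.00031), and 0.66 ± 0.08 for isoform t2 (edgeR FDR 0.00045). The value of the gene row stayed between 0.51 and 0.56 without any 1 of the 12 libraries and was called each time. The comparison was chosen after the values were seen.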

How the results depend on the processing

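Alternatives changed the scaling, the tool, the filter on low counts, the pooling of spread and a replicate block, or left out each library. Under all of them, 16 of 21 gene-level results kept their direction and their side of the threshold. So did 11 of 15 results of t2 and 10 of 14 of t3. Shares were not tested, and 30 of 32 stayed within the SD of their group around its mean, a looser criterion where the SD was wide. The gene-level genotype difference of untreated leaves lost its call without a filter (−0.27, edgeR FDR 0.068) and with the replicate block (−0.28, FDR 0.19), and ran from −0.29 to −0.26 with single libraries left out. The genotype by cold difference of crowns was called with all 24 libraries in the fit (−0.47, FDR 0.034) and by DESeq2 (−0.47, FDR 0.0069), and ran from −0.52 to −0.38 with single libraries left out. The tissue by cold difference of ‘Alta’ was called with all 24 libraries in the fit (0.44, FDR 0.019) and by DESeq2 (0.47, FDR 0.00077). The gene-level cold response of ‘Alta’ crowns, not called, ran from −0.032 to 0.097 with single libraries left out, negative only without ‘Alta’ crown 42 d replicate 3. The average tissue difference ran from 0.10 to 0.15 (FDR 0.0052 to 0.080) and lost its call without 11 of the 24 libraries, namely all 3 of ‘Alta’ crown 0 h, ‘Alta’ leaf 42 d replicate 3, ‘NCGR1363’ crown 0 h replicates 2 and 3, ‘NCGR1363’ crown 42 d replicates 1 and 3, ‘NCGR1363’ leaf 0 h replicate 1 and ‘NCGR1363’ leaf 42 d replicates 2 and 3.

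For t2, the cold response of ‘Alta’ crowns, not called, was 0.031 with DESeq2 size factors and 0.029 by DESeq2, and ran from −0.093 (without ‘Alta’ crown 42 d replicate 3) to 0.055 (without its replicate 2). The tissue difference of untreated ‘Alta’ was not called with all 24 libraries in the fit (−0.21, FDR 0.16) or with the replicate block (−0.28, FDR 0.051). The cold response of ‘Alta’ leaves ran from −0.61 to −0.47. The average genotype difference was called by DESeq2 (0.13, FDR 0.026) and ran from 0.12 to 0.17.

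For t3, the adjusted p of its level in untreated leaves was 0.00242 by the newer quasi-likelihood method, 0.0118 with all 24 libraries in the fit and 0.00117 by DESeq2, and 0.0132 to 0.19 with single libraries left out. It passed without ‘NCGR1363’ leaf 0 h replicate 3. In leaves at 42 d it was 0.0072 by the newer method, 0.0477 with the filter in 2 of 3 replicates, 0.00696 with all 24 libraries in the fit and 5.87e-07 by DESeq2, and 0.0445 to 0.144 with single libraries left out, passing without ‘NCGR1363’ leaf 42 d replicate 1. In crowns at 42 d it was 0.412 with the replicate block and 0.00575 to 0.198 with single libraries left out. Its usage in untreated leaves had an adjusted p of 0.0652 with the block and 0.0015 to 0.0923 with single libraries left out. Dividing counts by the length to the end of the coding sequence, an alternative chosen after seeing the data, gave a t3 share of 10.2% in untreated ‘Alta’ leaves and a t4 share of 1.82% in untreated ‘Alta’ crowns. Of the 5 genes most like DRP3A, 3 were also among the first 5 by Spearman's rho and 2 by the 8 group means. The causes were not tested. Over all genes the block called 601 against 3426 without it in the genotype comparison of untreated leaves, and 0 against 1465 in the cold response of ‘Alta’ crowns, where 3444 genes had an unadjusted p under 0.05. With all 24 libraries in the fit the cold response of ‘NCGR1363’ crowns called 3663 genes against 11264, and the genotype by tissue difference at 0 h 2804 against 8262. DRP3A was called in both under either fit. No scaling moved the median of all genes by more than 0.069 on the log2 scale. The minor isoforms had few counts, so changes in them may have been missed. The share of t3 had an SD of 4.3 percentage points in ‘Alta’ leaves at 42 d and of 0.75 to 1.9 in the other ‘Alta’ groups. Changes smaller than this spread may have been missed too, and the smallest detectable change was not estimated.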
